A study of Mus musculus with 8 samples.

Results

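The genes described here control lipolysis, the release of fatty acids from stored triglyceride. They are the lipases Pnpla2, Lipe and Mgll, the lipase cofactors Abhd5 and G0s2, the beta-adrenergic receptors Adrb1 and Adrb3, the phosphodiesterase Pde3b and the glycerol channel Aqp7. They were chosen by symbol, and all 9 were found among the 53700 rows of the count table and passed the filter on low counts that kept 18656 rows. All mice, uninjured ones included, carried AdipoqCreER and R26-NuTRAP and had received tamoxifen. AdipoqCreER is a tamoxifen-inducible recombinase driven by adiponectin gene sequences, and NuTRAP places a GFP tag on the ribosomes of cells in which the recombinase has acted, so that antibody pull-down enriches RNA from the translating ribosomes of these cells. The groups were uninjured skin (n = 3), skin at day 3 after wounding (n = 2) and skin at day 7 after wounding (n = 3). Mice of the wound groups had 4 full-thickness wounds made by a 5 mm punch. An age of 7 to 9 weeks at wounding is listed with all samples, uninjured ones included. The wounding protocol, listed with all samples, names the analgesic ketoprofen, an anti-inflammatory drug, at 5 mg/kg and isoflurane anaesthesia; whether uninjured mice received them is not given in the sources used here. The tag depends on recombination in each cell, and the time between tamoxifen and wounding is not given in the sources used here.

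In fat cells, noradrenaline acts on beta-adrenergic receptors, adenylyl cyclase makes cyclic AMP, and protein kinase A then phosphorylates the lipid droplet coat and hormone-sensitive lipase. Adipose triglyceride lipase (Pnpla2) takes the first fatty acid from triglyceride, hormone-sensitive lipase (Lipe) acts on the diglyceride, and monoglyceride lipase (Mgll) releases the last fatty acid and glycerol. Abhd5 activates Pnpla2 and G0s2 inhibits it, while insulin opposes the pathway through the phosphodiesterase Pde3b, which breaks down cyclic AMP.

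Libraries held 5308959 to 17751689 counts. All 10 adipocyte markers had counts in every library, with a mean log2 CPM (counts scaled to a common library size with TMM factors) of 9.78 to 9.95 in uninjured, 9.52 and 9.59 in day 3 and 8.86, 9.27 and 9.84 in day 7 replicates 1, 2 and 3. RNA of other cells was present too. The summed level of 10 skeletal muscle markers was 4930 to 10460 CPM in uninjured, 3124 to 5188 CPM in day 3 and 821.3 to 1515 CPM in day 7 libraries. That of 8 endothelial markers was 74.04 to 159.8 CPM, 223.7 to 236.6 CPM and 118.5 to 454.3 CPM, and day 7 replicate 3 held the lowest day 7 value. Day 3 replicate 1 stood apart by luminal epithelial markers, at 1406 CPM against 24.48 CPM in replicate 2. In such pulled-down bulk RNA, fewer cells of a type and less RNA per cell cannot be told apart. A leading number in the column names is shared within each group and differs between groups, so whatever it marks cannot be told apart from the group.

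Set per length (CPM per kilobase of exon), the lipolysis genes spanned a wide range in uninjured skin. G0s2 and Pnpla2 were the most abundant, at 1340 ± 457 and 779 ± 100 CPM per kilobase (SD, n = 3). Mgll followed at 200 ± 16.1, then Lipe at 116 ± 15.9 and Adrb3 at 108 ± 6.96, and libraries of this last pair overlapped. Aqp7 at 40.1 ± 7.84 and Abhd5 at 36.0 ± 2.45 CPM per kilobase overlapped as well, and Pde3b was at 20.0 ± 6.89. Adrb1 came last at 0.207 ± 0.0703 CPM per kilobase. At day 7 the order of the means was the same, but Pnpla2 at 264 ± 149 CPM per kilobase then overlapped Mgll at 166 ± 42.7.

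Among the lipases, Pnpla2 fell at day 7. Its levels were 2398, 2030 and 2631 CPM in the uninjured libraries, 1568 and 1639 CPM in the day 3 libraries and 371.4, 758.4 and 1266 CPM in the day 7 libraries, each in the order of the replicate numbers, as throughout. Every day 3 library lay below every uninjured one, and every day 7 library below every day 3 one. At day 7 against uninjured skin the level was 2.95-fold lower, a log2 fold change of -1.56 ± 0.40 (SE, edgeR adjusted p = 0.0397). In the other contrasts it did not pass: the log2 fold change was -0.55 ± 0.44 at day 3 against uninjured (adjusted p = 0.61) and -1.01 ± 0.43 at day 7 against day 3 (adjusted p = 0.431, unadjusted p = 0.0388). The day 7 call was lost without any single uninjured library or day 7 replicate 1 or 2 (highest edgeR adjusted p = 0.148). Muscle also expresses Pnpla2, and the part of the muscle RNA given above in this result was not tested.

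Lipe and Mgll did not pass in any contrast. Lipe was at 591.6, 779.1 and 680.6 CPM in uninjured, 633.6 and 543.2 CPM in day 3 and 375.1, 438.8 and 609.8 CPM in day 7 libraries. Day 7 replicates 1 and 2 lay below all uninjured libraries and replicate 3 among them. Its log2 fold change at day 7 against uninjured was -0.53, with a 95% interval from -1.09 to 0.04 (edgeR adjusted p = 0.215). Mgll was at 947, 1107 and 994.3 CPM in uninjured, 942.4 and 814.5 CPM in day 3 and 676.5, 768.5 and 1089 CPM in day 7 libraries. Its interval at day 7 ran from -0.84 to 0.31 around -0.27 (edgeR adjusted p = 0.53), and again only replicate 3 of day 7 lay within the uninjured range.

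**Figure D1:**
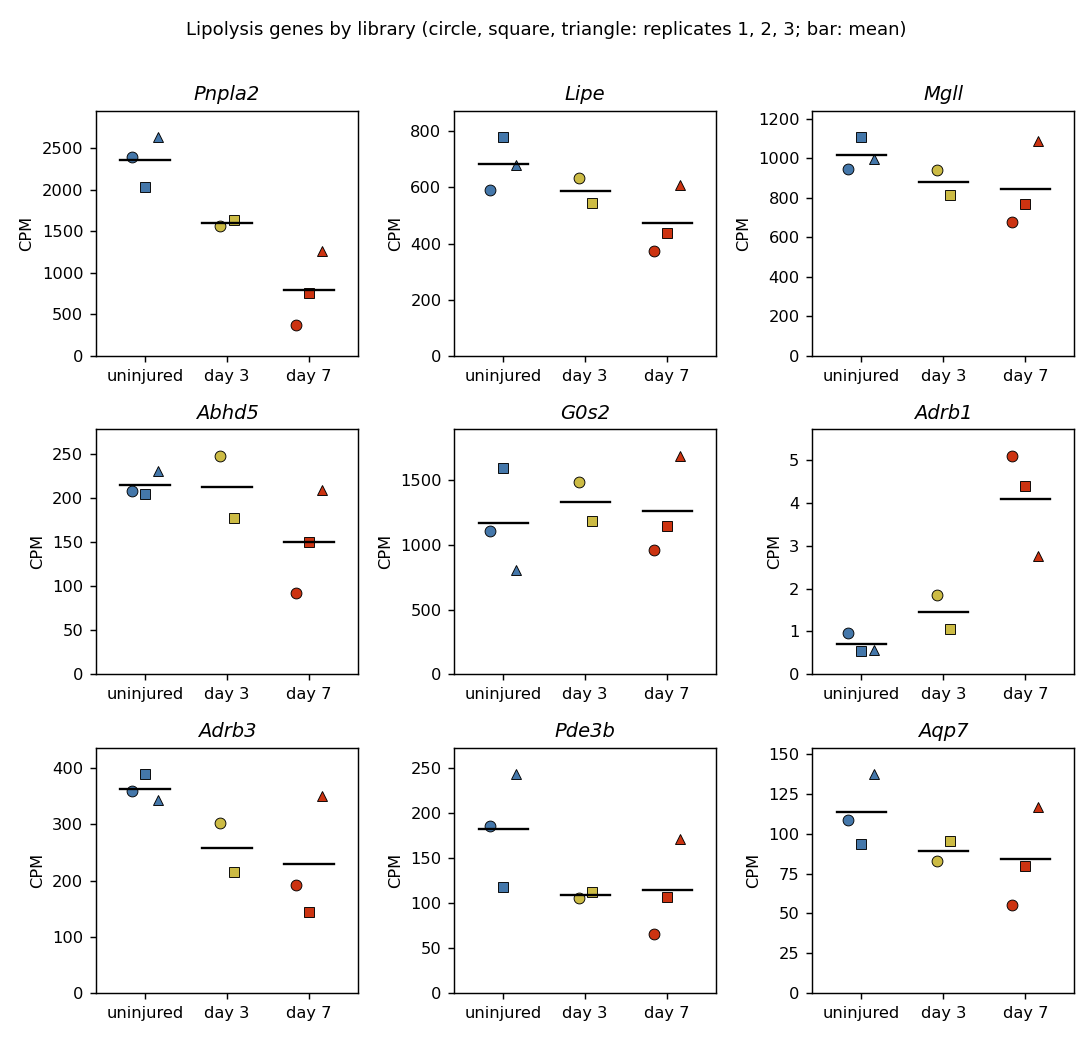
TMM-normalised CPM (vertical axes from 0) of the 9 lipolysis genes in the 3 uninjured, 2 day 3 and 3 day 7 libraries, with a bar at each group mean. Pnpla2 steps down from 2030 or more to 1266 or less at day 7, Adrb1 steps up from at most 0.9758 to at least 2.755 CPM, and in the other 7 panels day 7 and uninjured libraries overlap.

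The cofactors of Pnpla2 did not pass either. Abhd5, its activator, was at 208, 204 and 231.1 CPM in uninjured, 248 and 177.5 CPM in day 3 and 92.04, 149.7 and 209.5 CPM in day 7 libraries (log2 fold change at day 7 -0.51 ± 0.29, edgeR adjusted p = 0.277). G0s2, its inhibitor, was at 1112, 1595 and 806.1 CPM in uninjured, 1486 and 1184 CPM in day 3 and 958.4, 1144 and 1691 CPM in day 7 libraries. The groups overlapped, and the interval of its log2 fold change at day 7 ran from -0.61 to 0.83 (edgeR adjusted p = 0.851).

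Set against Pnpla2 within each library, the inhibitor and activator messages stood higher in all day 7 than in all uninjured libraries. These ratios were picked after the values were seen, and they do not depend on how libraries were scaled. Those to Pnpla2 share a denominator that was itself called as falling at day 7 (log2 -1.56), so they restate that fall in part. G0s2 and Abhd5 themselves did not pass (log2 0.11 and -0.51). Mgll to Pnpla2 shifted upward as well, by a log2 difference of 1.43. The limit given above on muscle RNA in the Pnpla2 result holds here too. The ratio of G0s2 to Pnpla2 per kilobase was 1.61, 2.73 and 1.06 in uninjured, 3.28 and 2.50 in day 3 and 8.95, 5.23 and 4.63 in day 7 libraries. All day 7 libraries lay above all others, a log2 difference of 1.85 from uninjured (exact two-sided permutation p = 0.1, the smallest that 3 against 3 libraries allow). Abhd5 to Pnpla2 went from 0.0440, 0.0510 and 0.0445 in uninjured to 0.126, 0.10 and 0.0839 in day 7 libraries, with day 3 at 0.0802 and 0.0549. The ratio of Lipe to Pnpla2 was 0.127, 0.197 and 0.133 in uninjured and 0.518, 0.297 and 0.247 in day 7 libraries. Both had no overlap between day 7 and uninjured libraries and the same exact permutation p = 0.1. Among the downstream lipases, Mgll to Lipe was at 1.86, 1.65 and 1.69 in uninjured, 1.72 and 1.74 in day 3 and 2.09, 2.03 and 2.07 in day 7 libraries. It too had no overlap between day 7 and uninjured libraries (exact permutation p = 0.1), with a smaller log2 difference of 0.25. How many of all genes would lack overlap when set against Pnpla2 or Lipe was not computed. By their own levels, 30.2% of all genes had no overlap between these groups, so a lack of overlap is common here.

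**Figure D2:**
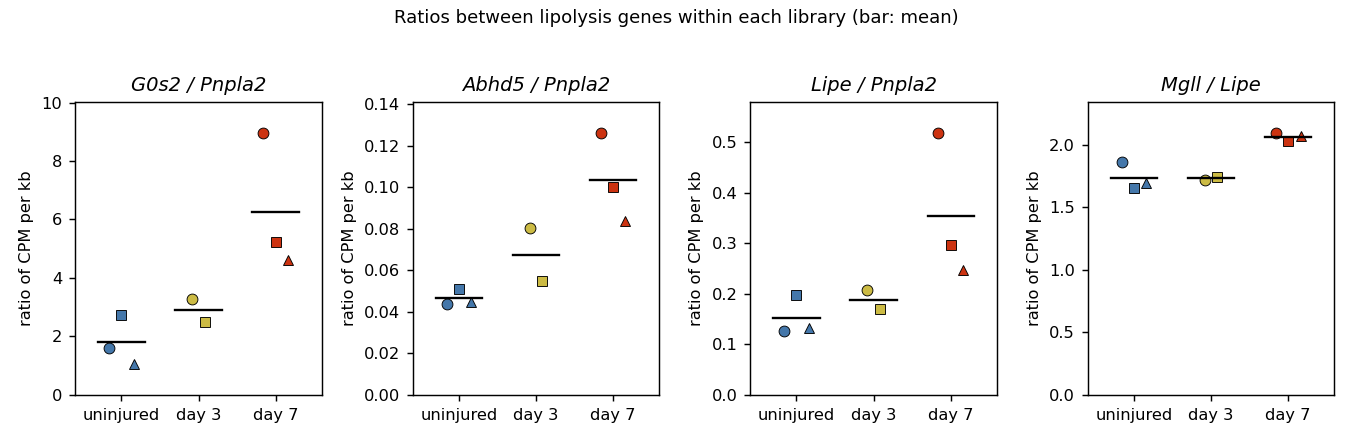
Ratios of CPM per kilobase within each library (vertical axes from 0; circle, square and triangle are replicates 1, 2 and 3; bars are group means). The G0s2 to Pnpla2 ratio is at most 2.73 in uninjured and at least 4.63 in day 7 libraries, and Mgll to Lipe is at most 1.86 in uninjured and at least 2.03 in day 7 libraries. Pnpla2, the denominator of the G0s2, Abhd5 and Lipe panels, itself fell at day 7.

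Of the receptors, Adrb1, the beta-1 receptor, rose at day 7 from a very low level. It had 8, 9 and 4 counts in uninjured libraries (0.9758, 0.5512 and 0.5777 CPM), 9 and 10 counts in day 3 libraries (1.851 and 1.069 CPM) and 45, 47 and 23 counts in day 7 libraries (5.094, 4.386 and 2.755 CPM). The 3 groups did not overlap. The day 7 level was 5.80-fold that of uninjured skin (log2 2.54 ± 0.55, edgeR adjusted p = 0.0215), and the day 3 change of 1.02 ± 0.63 did not pass (adjusted p = 0.506). The day 7 call was lost without any single uninjured library or day 7 replicate 1 or 2 (highest edgeR adjusted p = 0.0824). Adrb1 is also expressed outside fat, and summed markers of several other cell types were higher in all day 7 than in all uninjured libraries. Luminal epithelial markers were at 13 to 30.32 CPM in uninjured and 527.6 to 1162 CPM in day 7 libraries. Fibroblast markers were at 844.7 to 1482 and 4074 to 7839 CPM, macrophage markers at 96.62 to 236.7 and 423.9 to 1001 CPM, and mast cell markers at 9.636 to 14.88 and 32.46 to 69.52 CPM. The part of any of these cells in the result was not tested. In day 3 replicates 1 and 2 luminal epithelial markers were at 1406 and 24.48 CPM and fibroblast markers at 1055 and 2509 CPM, beside Adrb1 at 1.851 and 1.069 CPM.

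Adrb3, the beta-3 receptor of rodent fat cells, was at 358.7, 389.2 and 343 CPM in uninjured, 302.1 and 214.7 CPM in day 3 and 192, 144.4 and 349.6 CPM in day 7 libraries. Both day 3 libraries and day 7 replicates 1 and 2 lay below all uninjured libraries, and day 7 replicate 3 did not. It did not pass at day 7 (log2 -0.67, interval -1.36 to 0.02, edgeR adjusted p = 0.201) or at day 3 (-0.49 ± 0.36, adjusted p = 0.57). Adrb3 stayed the more abundant receptor per kilobase in every library, by 368-fold to 707-fold in uninjured, 164-fold and 201-fold in day 3 and 33.0-fold to 127-fold in day 7 libraries, ratios that rest on the few counts of Adrb1.

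Neither the cyclic AMP phosphodiesterase nor the glycerol channel passed. Pde3b was at 185.6, 118 and 243.3 CPM in uninjured, 105.9 and 112.8 CPM in day 3 and 65.43, 106.7 and 171.4 CPM in day 7 libraries. Uninjured libraries already differed from each other more than their mean did from that of day 7 (log2 -0.67 ± 0.35, edgeR adjusted p = 0.244). Aqp7, through which glycerol leaves the fat cell, was at 109, 93.83 and 137.5 CPM in uninjured, 82.67 and 95.58 CPM in day 3 and 55.36, 80.06 and 116.8 CPM in day 7 libraries (day 7 log2 -0.43 ± 0.28, edgeR adjusted p = 0.336).

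**Figure D3:**
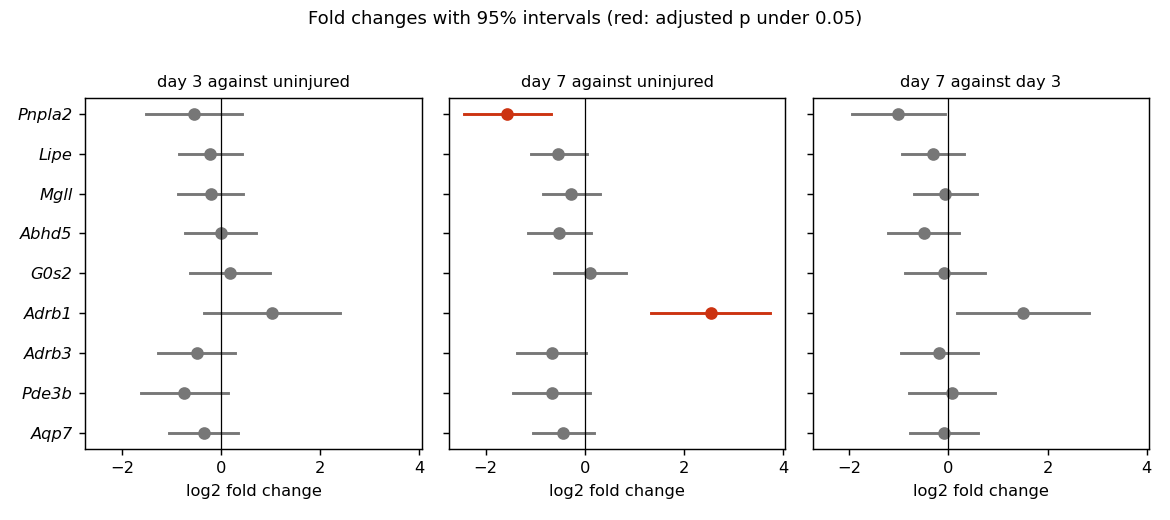
Log2 fold changes (points) with 95% intervals (lines) of the 9 lipolysis genes in the 3 contrasts of the edgeR fit over all genes. Pnpla2 (-1.56) and Adrb1 (2.54) at day 7 against uninjured skin are the calls, drawn in red; all day 3 intervals include 0.

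Counted together at day 7 against uninjured skin, 1 of the 9 genes rose and 1 fell, where edgeR called 7.67% of all 18656 genes tested (5.9% rose and 1.77% fell). Their median log2 fold change was -0.51, against 0.04 over all genes, and 7 of 9 were negative, against 47.9% of all genes. The 10 adipocyte markers had a median of -0.61, with 9 negative, so such a shift was not particular to the lipolysis genes. Groups did not overlap for 2 of the 9, against 30.2% of all genes. At day 3 against uninjured skin 0 of 9 passed in edgeR, 0 had an unadjusted p under 0.05 and 0 passed in DESeq2. Of all genes, 0.0107% passed in edgeR, 13% had an unadjusted p under 0.05 and 2.26% passed in DESeq2. Libraries did not overlap for 5 of the 9 (34.1% of all genes), and the median was -0.22, against 0.02 over all genes and -0.3 over the adipocyte markers. At day 7 against day 3 0 of 9 passed in edgeR (0.0858% of all genes) or DESeq2 (1.18%). Pnpla2 and Adrb1 had an unadjusted p under 0.05 there, against 11% of all genes, and these 2 were also the genes whose libraries did not overlap (25.5% of all genes). Both day 7 contrasts share the day 7 libraries, and both contrasts with uninjured skin share those.

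Day 7 replicate 3 stood at the edge of its group. It was the highest of the day 7 libraries for 8 of them and the lowest for Adrb1. Without it, 5 genes fell (Pnpla2, Lipe, Abhd5, Adrb3 and Pde3b) and Adrb1 rose, with edgeR adjusted p from 0.0053 for Pnpla2 to 0.0499 for Abhd5, in a fit that called 22% of all genes. Without day 7 replicate 1 or 2, or any uninjured library, 0 of the 9 passed in edgeR, in fits that called 1.69% to 4.38% of all genes.

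Next, each gene was set against the mean log2 level of the 10 adipocyte markers in the same library, which holds none of the 9 genes. Pnpla2 was lower at day 7 on this scale too. Its difference to the markers was 1.28, 1.05 and 1.58 on the log2 scale in uninjured, 1.03 and 1.15 in day 3 and -0.33, 0.30 and 0.47 in day 7 libraries, a shift of -1.16 (exact permutation p = 0.1, adjusted 0.225, n = 3 per group). This scale takes no account of muscle RNA, whose markers were lower in all day 7 than in all uninjured libraries. Of all genes tested, 2.95% had day 7 libraries entirely below uninjured ones on this scale and 26.4% entirely above.

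G0s2, Mgll and Adrb1 lay above their uninjured values on the same scale. G0s2 was at 0.17, 0.71 and -0.13 in uninjured and 1.04, 0.89 and 0.88 in day 7 libraries, and at 0.95 and 0.69 in day 3 libraries. Mgll shifted by 0.27 and Adrb1 by 2.78, each without overlap between the groups. The other 5 overlapped and shifted by between -0.20 (Adrb3) and 0.08 (Aqp7). With 3 libraries in each group no shift could reach an exact permutation p under 0.1, and 29.3% of all genes had no overlap.

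**Figure D4:**
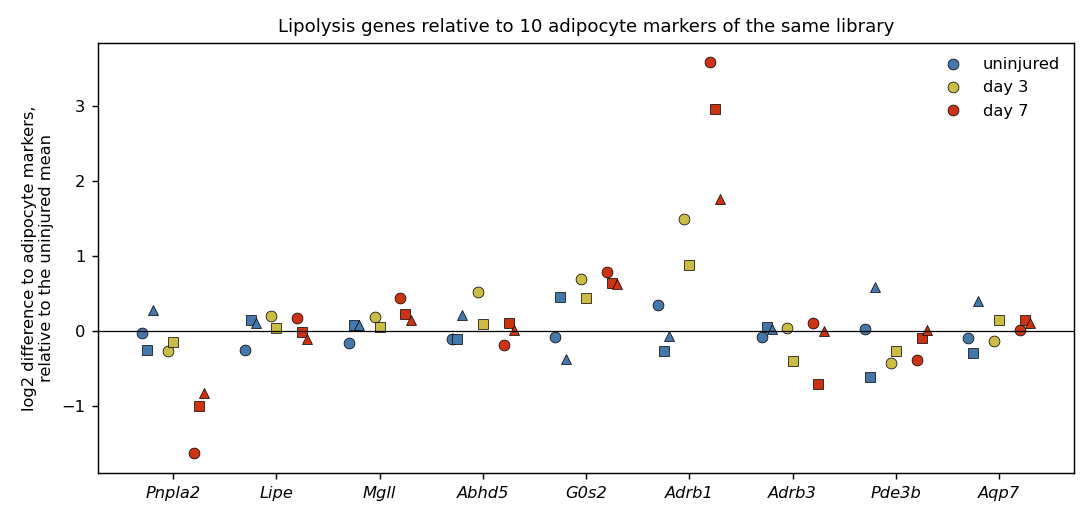
Log2 difference of each lipolysis gene to the mean of 10 adipocyte markers of the same library, drawn relative to the uninjured mean of that gene (horizontal line at 0; circle, square and triangle are replicates 1, 2 and 3). The 3 day 7 points of Pnpla2 lie below and those of G0s2, Mgll and Adrb1 above all uninjured points, and Lipe, Abhd5, Adrb3, Pde3b and Aqp7 overlap.

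Of 91 other genes of the pathway, 87 were tested, and at day 7 against uninjured skin 4 rose, 2 fell and 81 did not pass in edgeR. These counts are near the shares of all genes, of which 5.9% rose and 1.77% fell. Their median log2 fold change was -0.08, against 0.04 over all genes. Of 19 adrenoceptor and coupling genes 3 rose and 0 fell, and of 11 other receptors 1 rose and 1 fell. Adra2a, the alpha-2A receptor that inhibits adenylyl cyclase, was at 0.6099, 1.164 and 0.7221 CPM in uninjured, 2.056 and 2.352 CPM in day 3 and 4.642, 6.065 and 2.156 CPM in day 7 libraries (4.95-fold, adjusted p = 0.0319). The adenylyl cyclase Adcy4 rose 11.3-fold (1.04 ± 0.267 to 11.9 ± 8.60 CPM, adjusted p = 0.0145), and Arrb2, a beta-arrestin that uncouples receptors, rose 2.43-fold (adjusted p = 0.0317). Npr1, a natriuretic peptide receptor that acts through cyclic GMP, rose 8.37-fold from a very low level (edgeR adjusted p = 0.033). It was at 0.366 to 1.53 CPM in uninjured libraries and 11.09, 9.704 and 1.677 CPM in day 7 replicates 1, 2 and 3. Replicate 3 thus lay just above the uninjured range. Endothelium also expresses Adcy4 and Npr1, and both were lowest in day 7 replicate 3, as the endothelial markers were; their part was not tested.

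Ptger3, the prostaglandin E receptor that inhibits adenylyl cyclase, fell at day 7. It was at 707.8, 338.8 and 708.1 CPM in uninjured, 163.9 and 185.3 CPM in day 3 and 87.96, 172.4 and 246 CPM in day 7 libraries. Both wound groups lay below all uninjured libraries, and the log2 fold change was -1.79 ± 0.39 at day 7 (edgeR adjusted p = 0.023) and -1.74 ± 0.45 at day 3 (adjusted p = 0.19). Without a single library, the day 7 call was lost in 4 of the 8 fits. The protein kinase A inhibitor Pkia, also a muscle gene, went from 63.1 ± 34.7 to 10.6 ± 7.65 CPM, a log2 fold change of -2.57 (edgeR adjusted p = 0.0208). The 6 calls in this wider pathway held in 3 (Adra2a and Arrb2) to 6 (Pkia) of the 8 fits without a single library.

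No gene passed in edgeR at day 7 against uninjured skin among 12 further lipases and droplet proteins, 10 phosphodiesterases, 11 genes of the insulin brake or 14 of glycerol and fatty acid handling. Among them, the droplet protein Cidec averaged 3910 ± 101 CPM in uninjured skin and 1740 ± 751 CPM at day 7 (edgeR adjusted p = 0.0675), and the droplet coat protein Plin1, which holds Abhd5 at rest, at 865 ± 14.4 and 548 ± 215 CPM (adjusted p = 0.181). Cidec passed with DESeq2 (log2 -1.19, adjusted p = 0.00299), and also in edgeR with no filter (adjusted p = 0.0101), with a replicate block (0.0298) or without day 7 replicate 3 (0.00997). Plin1 passed in edgeR without day 7 replicate 3 (adjusted p = 0.0181). Both are also among the adipocyte markers used above and were named whatever their values. Other genes of these lists passed in some alternatives too. Slc27a1, of fatty acid handling, was nearer the edgeR threshold (log2 -1.52, adjusted p = 0.0556) and passed with DESeq2 (adjusted p = 0.00276). Fabp5 rose with DESeq2 (log2 1.05, adjusted p = 0.0246). At day 3 against uninjured skin and at day 7 against day 3, 0 of the 87 passed in edgeR, with 14 and 4 at an unadjusted p under 0.05. Of all genes, 0.0107% and 0.0858% passed and 13% and 11% had such an unadjusted p. DESeq2 called 2 at day 3, Ptger3 and Adcy4, and 0 at day 7 against day 3, where it called 2.26% and 1.18% of all genes.

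**Figure D5:**
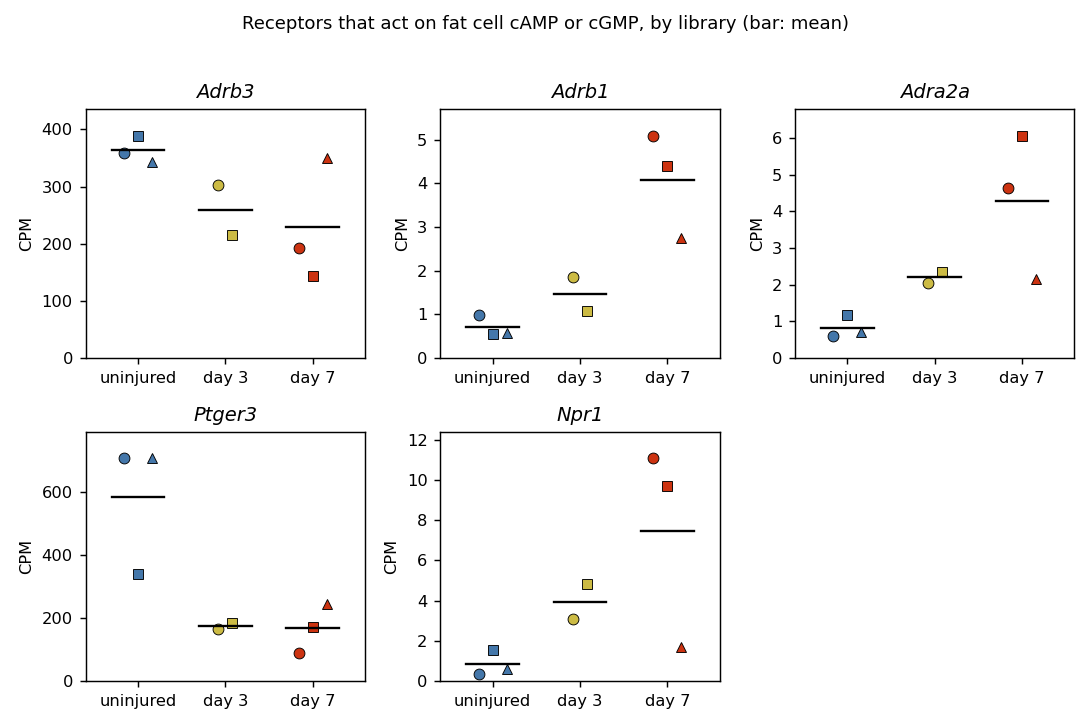
CPM (vertical axes from 0) of receptors that raise or lower cyclic AMP or cyclic GMP in fat cells, by library and group, with bars at the means. Adrb1, Adra2a and Npr1 are higher and Ptger3 lower in all day 7 than in all uninjured libraries, and Adrb3 overlaps. For Npr1 the margin is narrow, with a lowest day 7 value of 1.68 CPM and a highest uninjured value of 1.53 CPM.

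Promoter sequences are shown for the 2 genes called at day 7, which moved in opposite directions, as the 250 bases before the transcription start, from RefSeq on GRCm38.p6. For both genes, the bases just after this start were not found in their transcripts in a second annotation, GENCODE, so the start rests on RefSeq alone. A RefSeq entry was found for 7 of the 9 genes, all but Adrb3 and Pde3b. Capitals mark TGACG, the short form of the cyclic AMP response element, on either strand.
Pnpla2, chr7:141454938-141455187, plus strand: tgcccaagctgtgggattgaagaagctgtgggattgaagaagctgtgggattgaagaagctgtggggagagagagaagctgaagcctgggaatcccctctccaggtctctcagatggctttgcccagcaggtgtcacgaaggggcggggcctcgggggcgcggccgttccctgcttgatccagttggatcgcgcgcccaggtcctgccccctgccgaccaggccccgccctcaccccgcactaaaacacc
Adrb1, chr19:56721867-56722116, plus strand: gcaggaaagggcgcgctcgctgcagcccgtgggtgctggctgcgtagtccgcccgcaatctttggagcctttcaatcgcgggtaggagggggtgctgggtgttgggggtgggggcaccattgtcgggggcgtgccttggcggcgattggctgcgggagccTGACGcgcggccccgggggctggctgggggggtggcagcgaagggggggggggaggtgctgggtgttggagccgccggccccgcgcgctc
TGACG was found in the window of Adrb1, 90 to 86 bases before the start, and not in that of Pnpla2. It was also found before Abhd5 (128 to 124 bases) and, on the opposite strand, before G0s2 (246 to 242 bases), and 17.7% of 32817 such windows in the table hold it. The full element TGACGTCA (1.55% of windows), the FOXO motif GTAAACA (3.16%), the E-box CACGTG (6.02%), the C/EBP motif TTGCNNAA (9.57%) and the DR1 element of PPAR and RXR (0.338%), each searched on both strands, were in none of these windows. Outside them, the E-box was found before Lipe and Mgll, and the FOXO motif before these genes too. A match describes letters only and is not a binding site.

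In the coordinates of the count table, Pnpla2 (ENSMUSG00000025509.16) spans chromosome 7 from 141035111 to 141040656 and Adrb1 (ENSMUSG00000035283.6) chromosome 19 from 56710631 to 56721545. On chromosome 7 also lie Lipe (25078952 to 25098135) and Pde3b (114014516 to 114138486). Mgll lies on chromosome 6 (88701394 to 88805342), Abhd5 on 9 (122180673 to 122210589), G0s2 on 1 (192954469 to 192955525), Adrb3 on 8 (27715804 to 27740644) and Aqp7 on 4 (41033074 to 41048139). Most starts in the count table are not those of GRCm38, although mm10 is named. Only 1491 of the 52093 matched identifiers, and 1 of the 9 lipolysis genes, start where the GRCm38 annotation has them. The build used instead is not given in the sources used here. These positions thus cannot be set beside the GRCm38.p6 promoter positions above. Exons of Lipe, Mgll, Abhd5 and Adrb3 overlap antisense genes in the table, and the strand setting of the counting is not given in the sources used here. The antisense genes were at 5.61 CPM at most.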

How the data were processed

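The authors deposited raw counts per gene for 8 libraries, made with featureCounts 2.0.8 per the file headers, and STAR 2.7.10b, featureCounts 2.0.8, DESeq2 and mm10 are named in the submitters' processing notes. Polysomes were pulled down with an anti-GFP antibody and libraries made from 20 ng RNA with the SMART-Seq mRNA LP kit, per the labels' protocols. How reads mapping to several genes were treated is not given in the sources used here.

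Genes passing filterByExpr at a minimum count of 10 were fitted with edgeR 4.0.16 (R 4.3.3) by quasi-likelihood, with TMM scaling, a mean per group and 5 residual degrees of freedom. Tests were two-sided, with Benjamini-Hochberg adjustment over all genes tested and a threshold of 0.05. The fit was tested on simulated counts. Nothing in the labels says whether replicates came from separate mice, so p-values measure the spread between these libraries, which may be technical. Intervals are at 95%. Alternatives used DESeq2 1.42.0, other scalings and filters, a replicate term, 2 groups only, and each library left out.

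The members and gene lists were chosen with earlier results of these data known. All 9 members were named. Of the other 7 pathway lists, named genes were those passing in any contrast plus Adra2a, Plin1 and Cidec. Slc27a1 and Fabp5 were added after the values were seen. For each member the 2 genes with the highest correlation over the libraries were also named. Some genes these rules pick are not reported here.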

Additional observations from a re-analysis of the deposited data

How the results depend on the processing

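At day 7 against uninjured skin, 2 lipolysis genes passed, and 2 also passed with DESeq2, DESeq2 size factors, upper-quartile scaling, no filter or 2 groups only. These alternatives called 7.85% to 13.9% of all genes. With a minimum count of 50 it was 1 (9.97% of all genes), since Adrb1 was then filtered out. Leaving out single uninjured or day 7 libraries gave 0 to 6, in fits that called 1.69% to 22% of all genes. Leaving out day 3 replicate 1 and day 7 replicate 3 together was chosen after seeing the data and leaves a single day 3 library. Only effect sizes are given for it, with Pnpla2 at -2.08 and Adrb1 at 2.74. The wider pathway had 6 calls, 12 with DESeq2 and 14 with no filter, where 7.67%, 13.9% and 8.16% of all genes passed. It had 0 to 28 without single uninjured or day 7 libraries. At day 3 it had 0, but 2 with DESeq2 (2.26% of all genes) and 7 with no filter (2.39%). At day 7 against day 3 it had 0, and 1 with no filter (1.48%).

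Deviations from the group means had correlations of -0.07 to 0.20 between same-numbered libraries and -0.22 to 0.21 between differently numbered ones. As these means rest on 2 or 3 libraries, the correlations cannot show whether the numbers pair samples. A replicate block raised the edgeR calls among all genes at day 7 against uninjured skin from 1431 (7.67%) to 2131 (11.4%). Pnpla2 then had an edgeR adjusted p of 0.0119, against 0.0397 without the block. With a replicate block, 2 lipolysis genes and 10 pathway genes passed at day 7 against uninjured skin, Abhd5 at day 3 was at 0.15 and Pde3b at day 7 against day 3 at -0.29.

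Directions of changes near 0 turned, and none of these passed; the cause was not tested. Abhd5 at day 3 (log2 -0.01) was at 0.01 with DESeq2, DESeq2 size factors or 2 groups, 0.11 with upper-quartile scaling, 0.04 with a minimum count of 50 and -0.28 to 0.19 without single libraries. Pde3b at day 7 against day 3 (0.07) was at -0.02 with upper-quartile scaling, -0.35 to 0.32 without single libraries and -0.40 without both. At day 7 against uninjured, G0s2 ranged from -0.16 to 0.40 without single libraries and was at -0.18 without both. G0s2 at day 3 ranged from -0.02 to 0.48. At day 7 against day 3, Mgll ranged from -0.28 to 0.05, G0s2 from -0.35 to 0.09, Adrb3 from -0.62 to 0.08 and Aqp7 from -0.40 to 0.11.

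Of all genes, 1431 passed at day 7 against uninjured skin with edgeR, 2602 with DESeq2 and 3156 with no filter. The counts were 2, 422 and 926 at day 3 and 16, 221 and 572 at day 7 against day 3. Of the last contrast's calls 75% rose, 57.7% with upper-quartile scaling, which moved the median of all genes at day 3 from 0.02 to 0.13. Among the lipolysis genes, depth limits Adrb1 most, at 4 to 9 counts in uninjured libraries. In the wider pathway, Npr1, Adra2a and Adcy4 were also low there, at means of 0.825, 0.832 and 1.04 CPM.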

Other observations

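For each lipolysis gene, the genes most alike in log2 CPM over all 8 libraries were picked by Pearson's r among 7049 candidates. The libraries share depth, scaling and group differences, so r is a description. Pnpla2 was much like Rab1b (r = 0.991). Adrb1 ran closest to Tceal9 (0.986) and the iron exporter Slc40a1 (0.976). Adrb3 was most like Actr10 (0.971) and Snx12 (0.956), and Lipe like Mrps30 and the adipocyte transcription factor Cebpa (both 0.978). Pde3b was most like Otud6b (0.998) and Slc25a16 (0.993), Abhd5 like Fh1 (0.993) and Bsg (0.988), Aqp7 like Tmem222 (0.989) and Foxred1 (0.987), and Mgll like Bud31 (0.981) and B2m (0.976). G0s2 had the lowest values, with Tpt1-ps3 (0.929), a pseudogene whose reads cannot be told apart from those of near-identical copies, and Sars (0.928).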
